A study of Mus musculus with 3 samples.

Results

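Cells labelled conventional dendritic cells 2 (cDC2), chosen for *Cd209a* transcripts, were followed through the healing of mouse skin wounds. Cells were selected on single-cell UMI counts (UMIs are unique molecular identifiers, each marking 1 captured mRNA molecule). A member held at least 2 *Cd209a* UMIs, at least 0.5% of its UMIs in the MHC class II genes *H2-Aa*, *H2-Ab1* and *H2-Eb1*, under 0.3% in the complement C1q genes *C1qa*, *C1qb* and *C1qc*, and under 0.5% in the fibroblast genes *Dcn* and *Col1a2*. It also had at least 500 UMIs, at least 200 genes and at most 10% mitochondrial UMIs. The rule found 638 of 40492 cells, with 93, 260 and 285 in the libraries of Days 3, 7 and 14. The reference was 10362 cells with at least 0.3% C1q UMIs and no *Cd209a* UMI, which are macrophage-type cells, with 1084, 6665 and 2613 on the 3 days.

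The study profiled excised wound tissue of wild-type C57BL/6J mice by droplet-based single-cell RNA sequencing to follow the cells and genes of repair, and sampled it 3, 7 and 14 days after injury. The mice were age-matched males, given no treatment other than full-thickness punch wounds of the dorsal skin, and no group was unwounded. Each day was 1 library of cells pooled over several wounds, so the animals cannot be told apart. A ratio between days therefore compares 2 libraries, has no replicate check and carries no test.

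Dendritic cells take up antigen in peripheral tissues, present it on MHC class II and carry it to lymph nodes, where they activate T cells. The cDC2 subset develops from Flt3-dependent precursors under transcription factors such as IRF4 and presents mainly to CD4 T cells. *Zbtb46* marks the conventional lineage, and *Xcr1* and *Clec9a* mark the sister subset cDC1. In mouse dermis, cDC2 are known for C-type lectins that bind glycans, among them CD209a and the macrophage galactose-type lectin 2 encoded by *Mgl2*. After taking up antigen, dendritic cells mature, gain the lymph node homing receptor CCR7 and reduce their uptake receptors.

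Summed over the members, the 3 libraries gave 760016, 986849 and 1496678 UMIs, with medians of 8271, 3474 and 4928 UMIs per cell. Member cells were therefore deepest on Day 3 and shallowest on Day 7, and the reference followed the same order with medians of 4441.5, 2889 and 3626. Between 19 and 111 cell barcodes occurred in both libraries of a pair, and 2, 2 and 7 members of the 3 libraries carried such a barcode. Without them the log2 ratios of the share of members given below were -0.78 and 0.69, in place of -0.79 and 0.71. Levels below are CPM, the usual scaled counts in which a gene's UMIs are divided by every UMI of the summed cells in a group, and bracketed ranges are 95% intervals for counting error only.

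Cd209a-positive dendritic cells formed a smaller share of the wound cells on Day 7 than in the other two libraries. They made up 2.09% of all cells on Day 3 (1.69% to 2.55%, Clopper-Pearson), 1.21% on Day 7 (1.06% to 1.36%) and 1.97% on Day 14 (1.75% to 2.21%). A cell with few UMIs can miss the *Cd209a* limit. The shares were therefore repeated in cells with at least 2000 UMIs, each thinned to 2000. They were then 1.75% (52 of 2974 cells), 1.01% (159 of 15753) and 1.39% (176 of 12618). The Day 7 value was lowest either way, with a log2 ratio to Day 3 of -0.79 (-1.14 to -0.44) in all UMIs and -0.79 (-1.25 to -0.31) in thinned cells. Day 14 stood above Day 7 by a log2 ratio of 0.71 (0.46 to 0.96), and by 0.47 (0.15 to 0.79) in thinned cells. Leaving out the shallower cells kept 2974, 15753 and 12618 of 4452, 21568 and 14472 cells. Of the cells kept, 92, 248 and 279 were members before thinning. The part of the cells left out in the smaller ratio was not tested.

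Against other dendritic cells, the members were the largest of the 3 dendritic groups in every library. The other two groups were mature dendritic cells, with *Ccr7* and *Fscn1*, and cDC1, with *Xcr1* and *Clec9a*. Mature cells numbered 19, 140 and 45 on Days 3, 7 and 14, and cDC1 numbered 8, 31 and 44. Levels in both groups on Day 3 therefore rest on few cells. Members were 77.5% of the 3 groups on Day 3, 60.3% on Day 7 and 76.2% on Day 14. Mature cells were 15.8%, 32.5% and 12%, so the Day 7 library held the largest mature part. Of members and reference together, members were 7.90%, 3.75% and 9.83%.

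**Figure D1:**
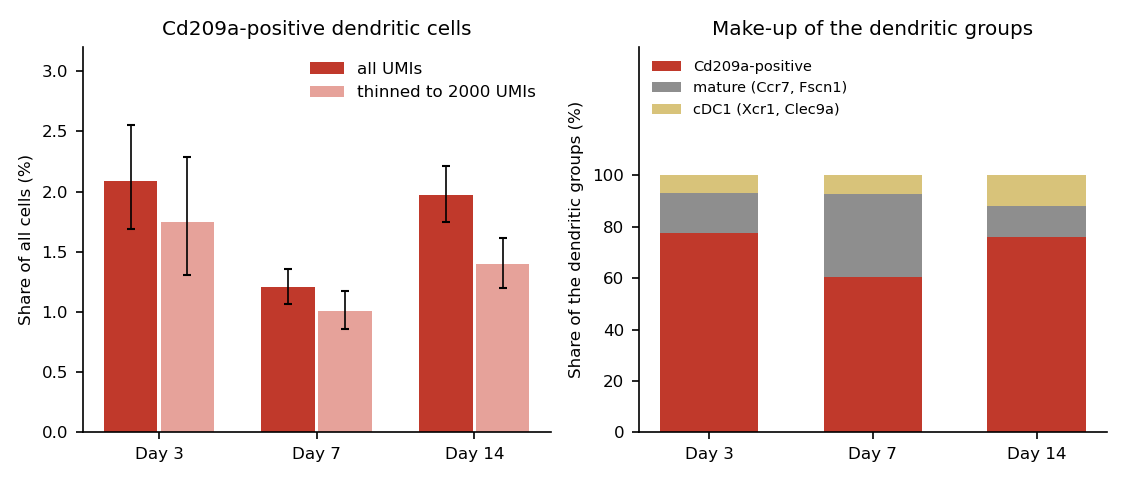
Left, Cd209a-positive dendritic cells as a percent of all cells on Days 3, 7 and 14 (1 library each), from all UMIs and after thinning to 2000 UMIs, with bars for 95% Clopper-Pearson intervals. Right, their percent among the 3 dendritic groups, with mature dendritic cells and cDC1. The red Day 7 bars are lowest on both sides, at 1.21% of all cells and 60.3% of the dendritic groups.

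Of the marker genes set beside the label, *Mgl2*, *Klrd1* and *Napsa* stood far above the reference while *Sirpa* and *Itgam* stood below it. The former 3 were listed as markers of these cells with earlier results of these data known. Their height therefore describes the selection and is no independent check of the label. *Mgl2*, not used by the rule, stood at 408, 902 and 1777 CPM in the libraries of Days 3, 7 and 14, against 16.0, 32.8 and 278 in the reference. *Klrd1*, which encodes the lectin-like receptor CD94, best known from natural killer cells, was at 382, 241 and 114 CPM, against 0.763, 2.29 and 1.01. *Napsa*, encoding the aspartic peptidase napsin A, was at 393, 347 and 261 CPM, against 25.6, 22.4 and 14.6. For each of these genes every member library lay above every reference library. *H2-Ab1*, a gene of the rule, was at 7930, 8227 and 11178 CPM, and *Cd209a* itself at 1275, 1059 and 1187.

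Of the lineage genes, *Zbtb46* was at 19.7, 37.5 and 31.4 CPM on Days 3, 7 and 14, against 0.191, 1.10 and 2.67 in the reference. *Irf4* was at 158, 106 and 88.2 CPM, against 15.3, 15.1 and 27.5. *Flt3*, the receptor for the dendritic growth factor FLT3L, was at 245, 119 and 56.1 CPM, against 2.10, 2.80 and 1.01. These 3 genes were higher in members than in the reference on every day. Cells with no *Cd209a* UMI that met the rest of the rule, other than mature cells and cDC1, held *Irf4* at 36.7, 50.8 and 89.7 CPM. Their *Flt3* was at 82.7, 59.0 and 22.5 CPM. On Day 14, *Irf4* thus did not set members apart from these cells. The cDC2 surface markers *Sirpa* and *Itgam*, which macrophages also carry, were lower. *Sirpa* was at 408, 376 and 163 CPM against 784, 671 and 382, with log2 ratios of -0.94 (-1.11 to -0.77), -0.84 (-0.99 to -0.69) and -1.23 (-1.42 to -1.04). *Itgam*, encoding CD11b, was at 472, 229 and 134 CPM against 741, 328 and 192, with log2 ratios of -0.65 (-0.81 to -0.49), -0.52 (-0.72 to -0.33) and -0.52 (-0.73 to -0.31). *Flt3*, *Zbtb46* and *Napsa* do not set members apart from cDC1, of which Day 3 held 8 cells. In cDC1 *Flt3* was at 581, 262 and 117 CPM, *Zbtb46* at 138, 71.3 and 44.0, and *Napsa* at 304, 325 and 337. Of the cDC1 list, the surface markers were low, with *Xcr1* at 0, 1.01 and 1.34 CPM against 235, 674 and 312 in the cDC1 group and *Clec9a* at 2.63, 5.07 and 0. The other listed genes were not all low, and the 10 together summed to 675, 629 and 573 CPM in members, against 732, 412 and 424 in the reference. *Wdfy4*, needed for cross-presentation, was at 78.9, 108 and 50.1 CPM against 29.2, 25.6 and 20.1, and *Naaa*, a lipid amidase, at 392.1, 322 and 388 against 351, 83.8 and 127. The maturation gene *Fscn1*, which encodes an actin bundler, was at 2.63, 19.3 and 16.7 CPM against 1360, 1891 and 2200 in mature dendritic cells. The mature cells had been chosen for *Fscn1* and the cDC1 group for *Xcr1* and *Clec9a*, so these gaps were fixed by the choice. Against the reference, *Fscn1* had log2 ratios of -0.12, -0.15 and -0.27, each with an interval including 0. *Fcer1a*, a marker of human cDC2, and the natural killer genes *Ncr1* and *Klrb1c* were at 0 in all 3 libraries. Of the other genes on the natural killer list, *Klrk1* was at 137, 104 and 73.5 CPM, *Nkg7* at 1.32, 2.03 and 10.0, *Gzma* at 0, 4.05 and 4.01, and *Prf1* at 0, 1.01 and 1.34. The 6 summed to 138, 111 and 88.9 CPM, against 2.48, 7.56 and 11.1 in the reference, and their part in the *Klrd1* level was not tested.

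**Figure D2:**
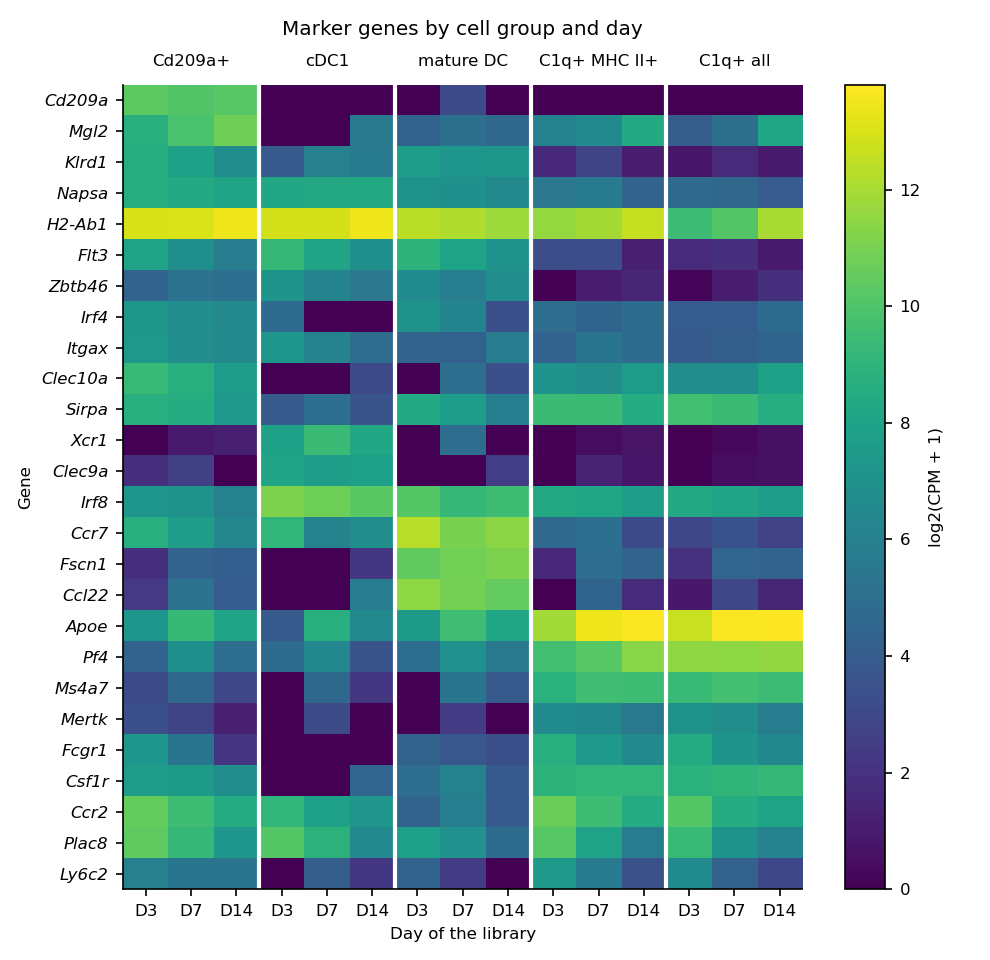
Marker genes (rows) in the Cd209a-positive cells, cDC1, mature dendritic cells, C1q-positive reference cells with MHC class II, and all C1q-positive reference cells, each on Days 3 (D3), 7 (D7) and 14 (D14), coloured by log2(CPM + 1) of the summed cells, 1 library per day. The Cd209a-positive columns hold *Mgl2*, *Klrd1* and *Napsa* with little *Xcr1*, *Fscn1* or *Ms4a7*.

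The wider contrast with the reference describes what the selection gathered. Since the reference was chosen for C1q and the absence of *Cd209a*, it is a description and not a finding. Of 2616 genes outside the rule with at least 50 CPM in members or reference in every library, 133 (5.08%) were at least 2-fold higher in members in each library and 219 (8.37%) at least 2-fold lower, and the median log2 ratio was -0.00. In the list of 20 cDC2 and dendritic genes, 8 of 13 that passed the level filter were at least 2-fold higher in each library and 0 at least 2-fold lower in each, with a median of 2.60. *Sirpa* and *Itgam* lay below the reference on all 3 days without reaching that fold in each, with mean log2 ratios of -1.002 and -0.563, and *Clec10a* and *Ifi205* lay below it on Day 14. In the list of 16 macrophage markers, 13 of 15 were lower and 0 higher, with a median of -4.09. *Folr2*, a folate receptor of tissue macrophages, had the lowest mean log2 ratio at -6.52, followed by *Pf4* at -6.13 and *Ms4a7* at -6.08. The lipid carrier *Apoe* was at 154, 598 and 261 CPM in members, against 6357, 13778 and 14305.

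Of the genes ranked by size, *Klrd1* led with a mean log2 ratio over the 3 days of 7.5. It was followed by *Cd7*, an immunoglobulin-family surface protein, at 7.05, *Ccl17*, the ligand of CCR4 on T cells, at 6.57, and *Cd209d*, a neighbour of *Cd209a*, at 6.42. The lysophosphatidylserine receptor gene *P2ry10* (6.23), the lectin-like receptor gene *Klrb1b* (6.03), *Flt3* (6.02) and *H2-DMb2* (5.39), a chain of the peptide-loading factor H2-DM, came next. *Ccl17* was found in 9, 21 and 14 members and had 0 UMIs in the Day 3 reference, where 3 UMIs took their place. *Klrk1*, encoding the receptor NKG2D, was also among the 12 highest, at 4.74. Against only those reference cells that held MHC class II, which were fewer, the mean log2 ratio was 6.54 for *Klrd1*, 5.19 for *Ccl17* and 4.65 for *Flt3*.

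**Figure D3:**
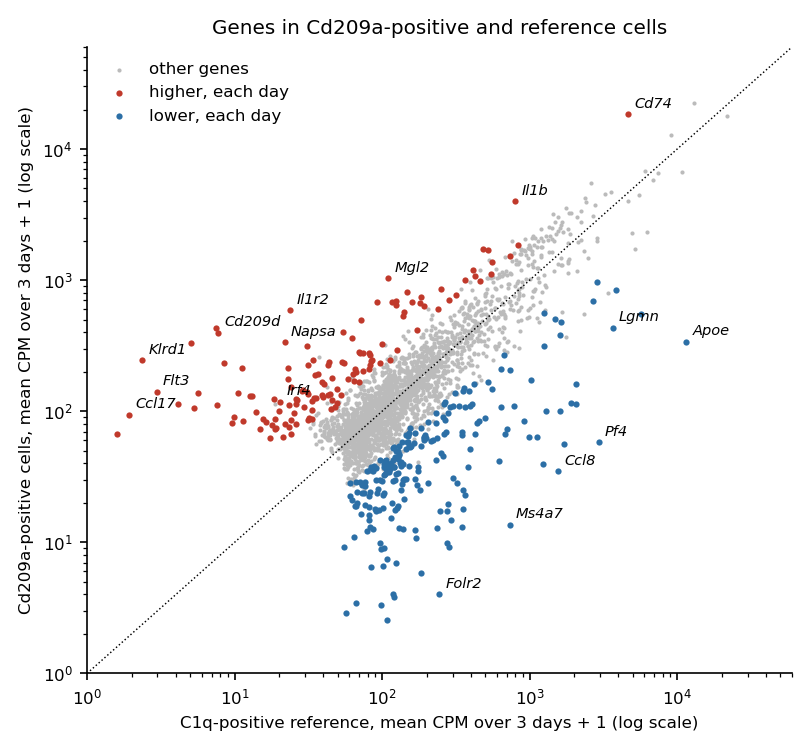
Each point is a gene that passed the level filter, with its mean CPM over the 3 days plus 1 in the C1q-positive reference (horizontal, log scale) and in Cd209a-positive cells (vertical, log scale). Red points are the 133 genes at least 2-fold higher in each library, blue points the 219 at least 2-fold lower, and the dotted line marks equal levels. *Klrd1*, *Flt3* and *Ccl17* lie far above the line, and *Folr2*, *Pf4* and *Apoe* far below it.

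Several lectin genes of the *Cd209* cluster on chromosome 8 were measured in the same cells. *Cd209a* spans chr8:3743397-3748984, *Cd209e* chr8:3847965-3854309 and *Cd209d* chr8:3871824-3878555, all on the minus strand of GRCm38. Upstream windows of 250 bases are shown for these genes, and for *Mgl2* on chromosome 11, because *Cd209d*, *Cd209e* and *Mgl2* were higher in later libraries while *Cd209a*, which chose the cells, was at 1275, 1059 and 1187 CPM. The sequences are from RefSeq on GRCm38.p6, read 5′ to 3′ toward the gene. For *Cd209d*, *Cd209e* and *Mgl2* (gene span chr11:70130329-70137550, plus strand) the RefSeq start lies inside the gene span, so the windows end within it. Capitals mark matches, on either strand, to the ETS-IRF composite element (GGAA, then any 2 bases, then GAAA) or to the PU.1 core GAGGAA.
Cd209a, chr8:3748985-3749234, minus strand: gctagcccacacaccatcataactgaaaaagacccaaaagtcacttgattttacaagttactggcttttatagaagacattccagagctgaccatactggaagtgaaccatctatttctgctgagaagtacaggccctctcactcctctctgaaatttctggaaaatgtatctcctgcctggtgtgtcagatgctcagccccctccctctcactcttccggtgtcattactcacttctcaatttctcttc
Cd209d, chr8:3878500-3878749, minus strand: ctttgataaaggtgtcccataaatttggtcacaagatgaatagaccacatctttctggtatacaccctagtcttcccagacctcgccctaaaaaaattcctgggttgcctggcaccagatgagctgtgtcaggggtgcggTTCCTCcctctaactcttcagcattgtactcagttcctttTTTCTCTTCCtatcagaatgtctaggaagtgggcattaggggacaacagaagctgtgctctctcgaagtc
Cd209e, chr8:3854287-3854536, minus strand: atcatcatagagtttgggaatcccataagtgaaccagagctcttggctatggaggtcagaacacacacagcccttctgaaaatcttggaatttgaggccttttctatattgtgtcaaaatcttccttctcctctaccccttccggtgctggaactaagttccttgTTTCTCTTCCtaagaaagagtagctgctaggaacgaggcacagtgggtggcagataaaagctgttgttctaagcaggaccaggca
Mgl2, chr11:70130107-70130356, plus strand: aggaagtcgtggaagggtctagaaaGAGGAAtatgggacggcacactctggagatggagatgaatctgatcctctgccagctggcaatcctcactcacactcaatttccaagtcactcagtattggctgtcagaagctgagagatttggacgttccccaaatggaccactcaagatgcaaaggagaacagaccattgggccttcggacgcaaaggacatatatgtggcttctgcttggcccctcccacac
The composite element matched 1 time each upstream of *Cd209d* and *Cd209e*, with the same letters TTTCTCTTCC on the printed strand, and did not match in the *Cd209a* or *Mgl2* windows. For *Cd209a* this depends on where the window stops. Its last 9 bases are the first 9 of the same 10 letters, and the RefSeq window, which runs 50 bases past the start, completes the match. Over those 300 bases the element matched 1 time each for *Cd209a*, *Cd209d* and *Cd209e* and 0 times for *Mgl2*, a count made after the shorter windows had been seen. It occurred in 756 of 32851 RefSeq promoter windows of 250 bases (2.30%) and in 892 of those of 300 bases (2.72%). The PU.1 core matched 1 time each in *Cd209d* and *Mgl2* and occurred in 23.3% of the 250-base windows. Aligned without gaps, the *Cd209d* and *Cd209e* windows shared 26.4% of their bases, *Cd209a* and *Cd209d* 26.8%, and *Cd209a* and *Cd209e* 19.6%. The *Mgl2* window, on another chromosome, shared 23.6%, 23.2% and 24% with *Cd209a*, *Cd209d* and *Cd209e*. The *Cd209* figures lie around these. A comparison without gaps misses stretches that are shifted between windows, so it cannot show whether the windows are alike. A match says only that the letters are there.

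*Cd209d* and *Cd209e* were each higher in the later library of every pair. *Cd209d* was at 76.3 CPM on Day 3 (57.9 to 98.7, exact Poisson), 351 on Day 7 (315 to 390) and 762 on Day 14 (718 to 807), and Day 14 stood above Day 7 by 1.12 (0.94 to 1.30) in log2. *Cd209e* was at 2.63 CPM (0.319 to 9.51), 43.6 (31.5 to 58.7) and 170 (150 to 193), with a log2 ratio of 1.97 (1.5 to 2.47). The intervals of the 3 days did not overlap for either gene. In the reference, *Cd209d* was at 0.572, 3.48 and 16.2 CPM and *Cd209e* at 0.381, 0.0917 and 0.829. Thinned to 2000 UMIs, 10.9%, 26.2% and 49.5% of members held a *Cd209d* UMI, against 0%, 0.615% and 2.26% of the reference. *Cd209b*, the marginal zone lectin SIGN-R1 of spleen, was at 0, 16.2 and 35.4 CPM and *Cd209c* at 21.1, 28.4 and 36.7. *Cd209f* and *Cd209g* were almost undetected, each at 0, 0 and 0.668 CPM in members (1 UMI on Day 14), with the reference at 1.53, 10.2 and 23.4 for *Cd209f*. The *Cd209* genes are close copies, so reads that fit several of them could have been assigned to one or dropped, and each level is uncertain to that extent.

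*Mgl2* showed the same order. Its log2 ratio was 1.14 (0.96 to 1.34) for Day 7 over Day 3 and 0.98 (0.87 to 1.09) for Day 14 over Day 7. The gain was also one of cells: after thinning, 27.2% of members held an *Mgl2* UMI on Day 3 (18.4% to 37.4%), 47.2% on Day 7 (40.8% to 53.6%) and 81.0% on Day 14 (75.9% to 85.4%). Without thinning the shares were 41.9%, 51.2% and 86.3%. The thinned reference shares were 0.790%, 4.41% and 30.6%, so the Day 14 reference also held *Mgl2* in many cells. *Clec10a*, the adjacent and closely related galactose-type lectin 1, ran opposite to *Mgl2* in members, at 622, 411 and 200 CPM, while it was 107, 108 and 232 in the reference. Its Day 14 to Day 7 log2 ratio was -1.04 (-1.26 to -0.82) in members and 1.10 in the reference, and that difference was not tested. Cells with no *Cd209a* UMI that met the rest of the rule, other than mature cells and cDC1, held *Clec10a* at 141, 105 and 51.8 CPM. Its lower values in later libraries were therefore not particular to the members. Reads shared by the 2 lectin genes could blur both levels.

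Across all genes, the Day 14 members were compared with the Day 7 members. Of 2913 genes that passed the level filter, 124 (4.26%) were at least 2-fold higher on Day 14 and 207 (7.11%) at least 2-fold lower, with a median log2 ratio of -0.06. The same genes had a median of -0.01 in the reference, where 48 of the 124 were also at least 2-fold higher and 49 of the 207 also lower. From Day 3 to Day 7, 103 of 3186 genes (3.23%) were at least 2-fold higher and 463 (14.5%) at least 2-fold lower, with a median of -0.25 in members and -0.25 in the reference. Day 3 was also the deepest library per member cell, and the part of depth in these counts was not tested. Changes below are read against these medians and shares. The Day 14 to Day 7 counts also depended on the level filter and on depth, as the closing section gives.

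*Mmp12* had the highest Day 14 to Day 7 ratio of the genes ranked by size. This gene, encoding macrophage elastase, had 27.6, 70.9 and 583 CPM in the 3 libraries, a log2 ratio of 3.04 (2.69 to 3.41) for Day 14 over Day 7, while the reference was at 33.4, 126 and 99.8. *Cd163*, a haemoglobin scavenger receptor best known from macrophages, was at 13.2, 14.2 and 94.9 CPM, with 66.0, 103 and 78.5 in the reference. The reference values of both genes were lower on Day 14 than on Day 7. The member level of *Cd163* on Day 14 was only just above the reference, with a log2 ratio of 0.27 (0.01 to 0.53). *Lmna*, encoding nuclear lamin A/C, was at 56.6, 123 and 557 CPM, with 428, 360 and 911 in the reference. *Cd81*, a tetraspanin, was at 6.58, 34.5 and 152 CPM, and the reference moved in the same direction, from 24.6 to 397. Outside that ranking but on the fixed lists, *Clec4b1*, the dendritic lectin DCAR, was at 84.2, 117 and 325 CPM and *Il7r*, whose product also takes part in the TSLP receptor, at 97.4, 103 and 198.

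Some of the higher values moved when cells or UMIs were left out. *Retnla*, encoding the type 2 immunity protein RELMα, was at 0, 106 and 493 CPM in members, and at 47.1, 229 and 1672 in the reference. From Day 7 to Day 14 its log2 ratio was 2.21, and 4.88 without cells of high doublet score. *Epcam*, an adhesion molecule of epithelia and Langerhans cells, was at 0, 12.2 and 63.5 CPM, and at 53.8 on Day 14 without 8 cells that held keratin UMIs. *Rgs5* (2.22), a pericyte gene, and *Igfbp5* (2.14) also stood among the 12 highest, and both changed direction in cells thinned to 2000 UMIs, to -1.73 and -0.56. Neither direction can therefore be read from these libraries.

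*Ifitm1*, an interferon-induced transmembrane protein, had the lowest ratio. It was at 2130 CPM on Day 3 (2028 to 2237), 2182 on Day 7 (2090 to 2276) and 26.7 on Day 14 (19.1 to 36.4), a log2 ratio of -6.35 (-6.84 to -5.90). Level on the first 2 days, it was nearly gone from the last library. The reference held 57.4, 44.6 and 13.7 CPM. In the other dendritic groups the Day 14 value was also the lowest, with 213, 1028 and 28.1 CPM in mature cells and 525, 658 and 3.67 in cDC1, the last value from 1 UMI. On Days 3 and 7 *Ifitm1* was thus higher in all 3 dendritic groups than in the reference. The Day 3 values rest on only 19 mature cells and 8 cDC1. With 1 library per day, time and library cannot be told apart.

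Many chemokine and growth factor receptor genes were lower in later libraries. In the list of 18 receptor genes, 9 of 15 that passed the filter were at least 2-fold lower on Day 7 than on Day 3 and 7 of 14 on Day 14 than on Day 7, with 0 higher in either step. The medians were -1.05 and -0.84, against -0.36 and -0.17 for the same genes in the reference. *Il1r2*, the decoy receptor for interleukin 1, was at 1301 CPM on Day 3 (1221 to 1385), 379 on Day 7 (342 to 419) and 96.9 on Day 14 (81.8 to 114), and the reference never exceeded 29.6. *Ccr2*, which brings monocytes and precursors of dendritic cells into tissue, was at 1491, 726 and 362 CPM, with 1145, 375 and 261 in the reference. Cells with no *Cd209a* UMI that met the rest of the rule, other than mature cells and cDC1, held *Il1r2* at 336, 174 and 140 CPM. Their *Ccr2* was at 1464, 798 and 505 CPM. The lower values of both genes in later libraries were therefore not particular to the members. *Ccr1* was at 254, 112 and 10.0 CPM, where the reference kept 214, 124 and 105. The stepwise order was shared by *Cxcr4* (946, 241 and 115 CPM) and *Il4ra* (336, 155 and 72.2 CPM), while *Csf2rb*, the beta chain of the GM-CSF receptor, was lower only from Day 3 to Day 7, at 1004, 353 and 360.

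Members also held less of several genes tied to dendritic identity and migration. The dendritic list had 4 of 15 genes at least 2-fold lower on Day 7 than on Day 3 and 8 of 15 lower on Day 14 than on Day 7, with 0 higher in either step. Its median of -1.04 for the later step stood beside 0.27 in the reference. The filter used member levels only, and some of these genes were rare in the reference. *Ffar2*, for example, was found in 11 of 6665 reference cells on Day 7 and 0 of 2613 on Day 14. *Flt3* was down to 56.1 CPM on Day 14 (44.8 to 69.5), with log2 ratios of -1.05 (-1.39 to -0.70) and then -1.08 (-1.5 to -0.66). *Klrd1* had log2 ratios of -0.66 (-0.92 to -0.41) and -1.09 (-1.38 to -0.80), and thinned shares of 40.2%, 35.1% and 19.0% of members. Both genes therefore stepped down in each library. In cDC1 *Flt3* took like-directed steps of -1.15 and -1.16, its Day 3 value coming from 8 cells. Lower in each later library too was *Ffar2*, a receptor for short-chain fatty acids, at 278, 81.1 and 5.35 CPM. *Kit*, the stem cell factor receptor, was at 151, 65.9 and 12.7 CPM, and *Kmo*, a kynurenine-pathway enzyme, at 101.3, 124 and 24.7, with 263, 55.5 and 18.3 in cDC1.

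The homing receptor gene *Ccr7* was at 413 CPM (369 to 461), then 204 (176 to 234), then 80.2 (66.5 to 95.9). Mature dendritic cells held 5136, 2105 and 2753 CPM and the reference 6.68, 10.3 and 5.53. The members lay between these groups on each day, but the mature cells had been chosen for *Ccr7*, so their higher level was fixed by the choice. After thinning, 22.8%, 18.1% and 8.60% of members had a *Ccr7* UMI, and only 1, 4 and 1 members held both *Ccr7* and *Fscn1*. *Napsa* and *Irf4* moved less, with log2 ratios of Day 14 to Day 7 of -0.41 (-0.62 to -0.19) and -0.27 (-0.65 to 0.11), the latter interval including 0.

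**Figure D4:**
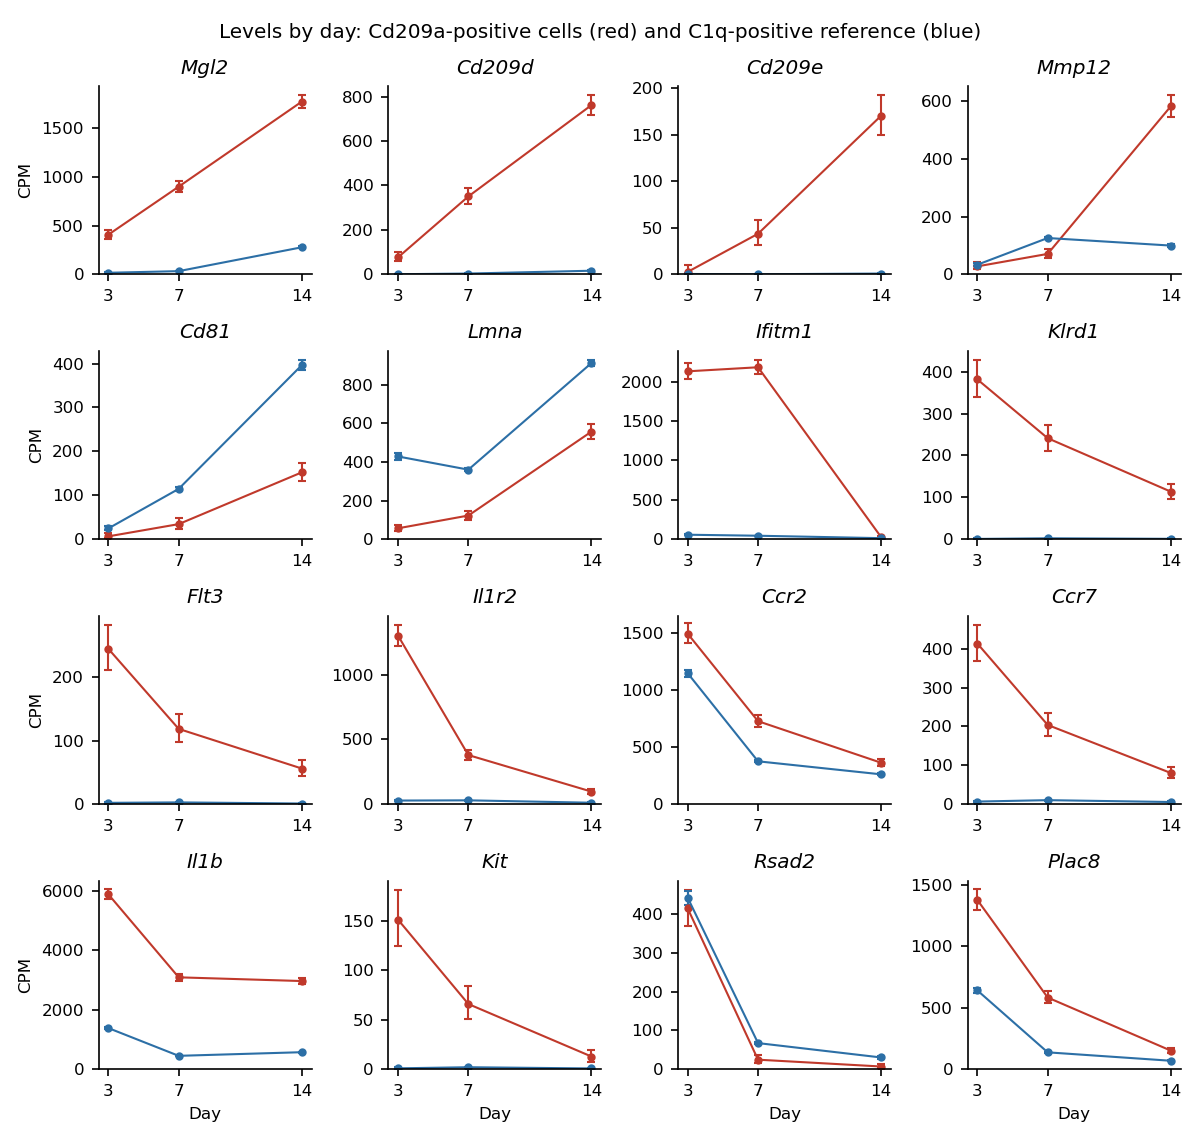
CPM of 16 genes by day in Cd209a-positive cells (red) and in the C1q-positive reference (blue), 1 library per day at Days 3, 7 and 14, with bars for 95% Poisson intervals and a separate vertical scale for each gene. *Mgl2*, *Cd209d* and *Cd209e* are higher on each later day in members, *Ifitm1* is at 2130 and 2182 and then 26.7, and *Il1r2*, *Flt3* and *Klrd1* are lower on each later day.

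Antigen presentation genes were counted next. In the list of 12 MHC class II presentation genes, 0 of 11 were at least 2-fold higher and 1 lower on Day 7 than on Day 3, and 0 higher and 3 lower on Day 14 than on Day 7. Over all genes, 14.5% were lower in the earlier step and 7.11% in the later one. In the reference, 3 of the same genes were higher and 1 lower in the earlier step, and 4 higher and 2 lower in the later one. *Cd74*, the invariant chain, was at 17562, 14072 and 23426 CPM, with 2282, 2292 and 9315 in the reference. *Ciita*, the master regulator of class II transcription, was at 94.7, 186 and 53.5 CPM, so it was lowest in the library with the most *Cd74*. The MHC class II share of each member's UMIs, which the rule bounded from below, had medians of 2.71%, 2.78% and 4.16%. The endosomal protease gene *Lgmn* was at 862, 308 and 132 CPM, far under the 7296, 2509 and 1162 of the reference.

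Several co-stimulatory genes were highest on Day 3. Of the 10 on the list, 3 of 6 that passed the filter were at least 2-fold lower on Day 7 than on Day 3, and 0 of 4 moved that far from Day 7 to Day 14, with medians of -1.34 and 0.02. *Cd80* was at 216, 59.8 and 63.5 CPM, and *Cd86*, its partner in T cell co-stimulation, at 336, 177 and 172. *Cd274*, encoding the checkpoint ligand PD-L1, was at 166, 48.6 and 39.4 CPM. *Tnfsf4*, the OX40 ligand, was at 114 and 31.4 CPM and had 0 UMIs on Day 14, where 3 UMIs would be 2.0 CPM. The same set in the reference had a Day 7 to Day 3 median of -0.48.

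The interferon-stimulated genes that passed the level filter were lower at each step. Of the list of 12, 10 of 10 were at least 2-fold lower on Day 7 than on Day 3 and 4 of 4 lower on Day 14 than on Day 7, with medians of -2.04 and -1.43. Over all genes, 14.5% were lower in the earlier step and 7.11% in the later one. A gene could pass the filter on its level in the earlier library alone. The list summed to 2017, 417 and 144 CPM in members, so fewer of its genes could enter the later step. In the reference the medians were -2.03 and -0.05. *Rsad2*, the antiviral enzyme viperin, was at 416, 24.3 and 6.68 CPM in members and 443, 67.2 and 30 in the reference. *Isg15*, a ubiquitin-like modifier, was at 264, 66.9 and 33.4 CPM in members. In the earlier step 8 of the same 10 genes were at least 2-fold lower in the reference, and the difference between the cell groups was not tested. *Ifi205*, another gene of this list, had a log2 ratio of Day 14 to Day 7 of -1.31 in members and 1.06 in the reference. It was also lower in later libraries, at 129, 85.4 and 60.4 CPM, in cells with no *Cd209a* UMI that met the rest of the rule.

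Among cytokines, *Il1b* was prominent. It was at 5881 CPM on Day 3 (5710 to 6056), 3088 on Day 7 (2979 to 3199) and 2963 on Day 14 (2876 to 3051), against 1380, 446 and 568 in the reference. Cells with no *Cd209a* UMI that met the rest of the rule, other than mature cells and cDC1, held it at 4447, 1779 and 1160 CPM. A high Day 3 level and a lower Day 7 level were thus not particular to the members. After thinning, 91.3%, 83.5% and 81.4% of members had an *Il1b* UMI, against 50.8%, 28.3% and 29% of the reference, at member and reference median depths of 8271, 3474 and 4928 and of 4441.5, 2889 and 3626 UMIs before thinning. The fibroblast collagen gene *Col1a1*, which dendritic cells should lack, had a UMI in 28.3%, 86.7% and 85.7% of the same thinned members, so such a share alone does not show expression. *Ccl17* was at 53.9, 117 and 109 CPM, and its relative *Ccl22* at only 3.95, 35.5 and 15.4, against 2862, 1935 and 1445 in mature dendritic cells. *Il12a* and *Il12b*, the chains of interleukin 12, had 0 UMIs in all 3 libraries, and *Il10* was at 0, 9.12 and 0 CPM against 123, 99.1 and 132 in the reference. *Osm*, oncostatin M, was at 293, 140 and 29.4 CPM, with 308, 129 and 164 in the reference.

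Some monocyte genes were lower in later libraries. Of 10 on the list, 3 of 8 were at least 2-fold lower on Day 7 than on Day 3 and 4 of 7 lower on Day 14 than on Day 7, with medians of -0.81 and -1.0. In the reference 5 and 2 of the same genes were lower, with medians of -1.73 and -0.74, and the difference between the cell groups was not tested. *Plac8* was at 1378, 583 and 150 CPM in members and 641, 136 and 67.8 in the reference. *Fcgr1*, the high-affinity IgG receptor CD64 used to tell monocyte-derived cells from cDC2, was at 150 CPM on Day 3 (124 to 180), 39.5 on Day 7 (28.1 to 54.0) and 3.34 on Day 14 (1.08 to 7.80). The reference held 354, 139 and 87.3. After thinning, 25%, 8.06% and 0.717% of members had an *Fcgr1* UMI, against 45.8%, 24.9% and 16.0% of the reference. Without thinning, the Day 3 shares were nearer, at 55.9% of members and 62.8% of the reference. The name cDC2 is therefore only a label for the Day 3 members. Whether they included monocyte-derived cells was not tested.

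Among the 20 transcription factor genes, *Nr4a3*, an orphan nuclear receptor that is an immediate target of many signals, was at 1316, 440 and 288 CPM, with 124, 75.9 and 75.8 in the reference. *Runx3*, needed by some dendritic and T cell subsets, was at 541, 265 and 152 CPM. *Etv3*, an ETS-family repressor, was at 532, 344 and 637 CPM and so was highest on Day 14. In this list 5 of 17 genes were at least 2-fold lower on Day 7 than on Day 3 and 1 of 18 lower on Day 14 than on Day 7, and 0 were higher. Over all genes, 14.5% and 7.11% were lower. Of the same genes in the reference, 1 was lower in the earlier step, and 0 were lower and 1 higher in the later one. Of the 16 pattern recognition genes, 4 of 6 were lower in the earlier step and 0 of 4 in the later one. In the reference 1 of those 6 was lower in the earlier step, and 0 of the 4 were lower and 2 higher in the later one.

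Members differed among themselves, and *Mgl2* divided them. In cells thinned to 2000 UMIs, 25 members had *Mgl2* and 67 did not on Day 3, 117 and 131 on Day 7, and 226 and 53 on Day 14. Median UMIs in cells with and without it were 8702 and 8191, 3965 and 3274, and 5223.5 and 4220. Cells with *Mgl2* were thus somewhat deeper even though the split used equal UMIs. On Day 14, *Ccl17* was at 129 CPM with *Mgl2* and 4.28 without, the latter from 1 UMI. On Days 3 and 7 it was at 124 against 24.4 and 211 against 19.1. In all, 9, 21 and 14 members held *Ccl17*, and 1 Day 14 cell held 76 of the 163 UMIs, so these levels rest on few cells. *Naaa* was also higher with *Mgl2*, at 433 against 128 on Day 14, and *Mrc1*, the mannose receptor, at 635 against 201. *Cd209e* was at 201 against 8.56 CPM on Day 14, the latter from 2 UMIs.

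The members without *Mgl2* held more of other genes. *Klrd1* was at 204 CPM with and 457 without *Mgl2* on Day 3, 197 and 291 on Day 7, and 82.1 and 287 on Day 14. *Plac8* was at 259 and 882 CPM on Day 7 and 41.4 and 741 on Day 14, a log2 ratio of -4.16 (-4.64 to -3.70), while on Day 3 the log2 ratio was only -0.14 (-0.34 to 0.06). *Irf8*, the factor of cDC1 and plasmacytoid cells, was at 38.2 and 214 CPM on Day 14. *Siglech*, a lectin of plasmacytoid dendritic cells, was at 5.58 and 120 CPM on that day and *Ccr9* at 3.19 and 85.6. Both of these plasmacytoid markers thus sat with the cells lacking *Mgl2*, although *Siglech* was found in only 2, 6 and 8 members of the 3 libraries. *Ly6c2*, a gene of circulating monocytes, had the same order on Day 14, at 9.56 and 210 CPM. *Ccr7* did not keep 1 order, at 607 and 332 CPM on Day 3, 285 and 121 on Day 7, and 59.8 and 193 on Day 14.

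**Figure D5:**
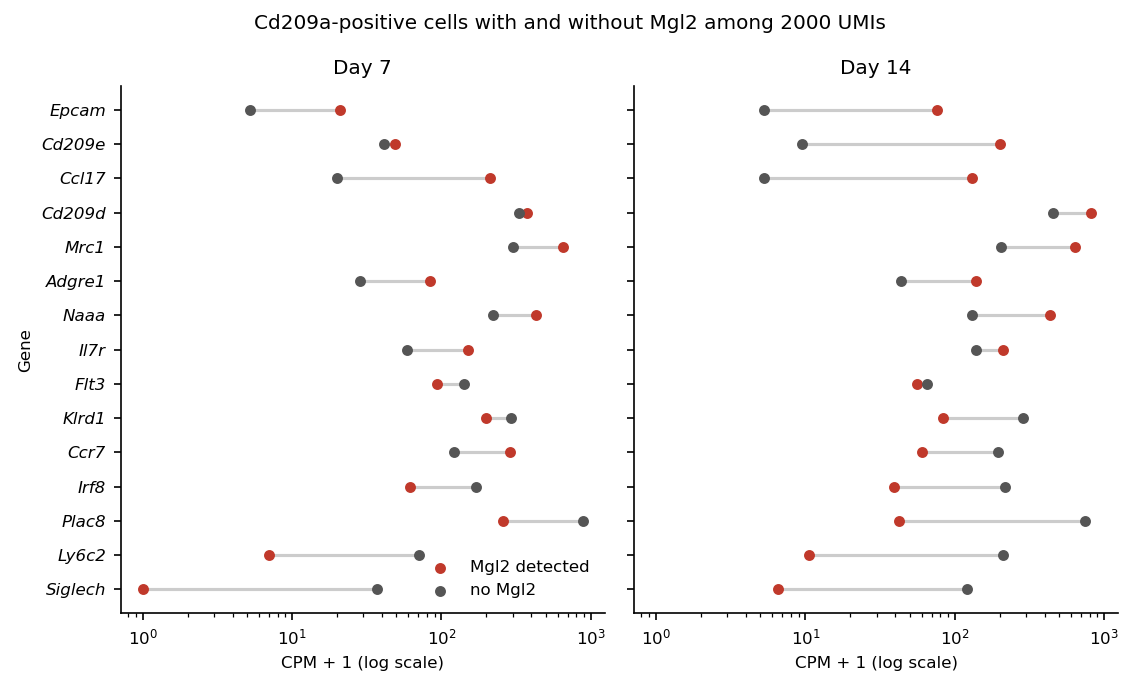
CPM plus 1 (log scale) of selected genes in Cd209a-positive cells with (red) and without (grey) an *Mgl2* UMI among 2000 drawn UMIs, on Day 7 (117 and 131 cells) and Day 14 (226 and 53 cells). On Day 14, *Ccl17* (from few cells) and *Cd209e* lie far to the right with *Mgl2*, and *Plac8*, *Ly6c2* and *Siglech* far to the right without it.

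The *Cd209a* limit itself cut through a range of levels. Members had medians of 8, 3 and 5 *Cd209a* UMIs and maxima of 51, 15 and 34. Just inside the limit, 13, 100 and 57 cells had 2 *Cd209a* UMIs, and their *Mgl2* was at 298, 541 and 1593 CPM. Just outside, 19, 167 and 83 cells that met the rest of the rule had 1 *Cd209a* UMI, with *Mgl2* at 381, 575 and 855. *Apoe* was at 222, 533 and 246 CPM inside and 945, 968 and 307 outside. The *Mgl2* intervals on either side of the limit overlapped on Days 3 and 7 and did not on Day 14, and more cells stood just outside than just inside it in every library.

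Dividing cells were few. With at least 3 UMIs over the cell cycle genes among 2000 drawn, 0 of 92 Day 3 members were counted, where 3 cells would be 3.26%. On Day 7 there were 11 of 248 (4.44%, 2.23% to 7.80%) and on Day 14 13 of 279 (4.66%, 2.50% to 7.84%). The reference had 0.564%, 1.54% and 2.45%. *Mki67*, the proliferation antigen, was at 6.58, 133 and 76.8 CPM in members, and its Day 14 to Day 7 order turned in thinned cells, where the log2 ratio was 0.66 in place of -0.79.

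Transcripts of other cell types were measured in the same members. The 16 macrophage markers summed to 2221, 2423 and 2309 CPM, against 18899, 26184 and 27294 in the reference. Fibroblast markers summed to 326, 2439 and 2566 CPM, against 369, 7343 and 15507, although fibroblast-rich cells were barred from the members by the rule. Neutrophil markers summed to 218, 473 and 7.35 CPM, and 5, 13 and 0 members had at least 3 *S100a8* and *S100a9* UMIs. The 6 keratinocyte markers summed to 0, 4.05 and 1015 CPM, and 8 Day 14 members held 90.7% of those UMIs. *Cd207*, the Langerhans cell lectin langerin, was found in 0, 0 and 8 members, T cell receptor complex genes in 0, 2 and 5, and B cell genes in none. T cell markers summed to 1.32, 18.2 and 46.1 CPM. Neutrophil transcripts were thus lower and keratin transcripts higher in the Day 14 than in the Day 7 library, alongside the gene differences above. Without the 8 keratin-holding cells, chosen after seeing the data, 152 of 154 named Day 14 to Day 7 ratios stayed within their counting interval, and none that had been at least 2-fold turned direction. The part of neutrophil and fibroblast transcripts in the differences was not tested.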

How the data were processed

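The study dissociated wound tissue enzymatically, lysed red blood cells, removed debris and sequenced Chromium 3' v3.1 libraries. The authors deposited unnormalised whole-number UMI counts for each gene in each barcode, made with Cell Ranger 6.0.0 on mm10 by the submitters' processing notes, and used Seurat downstream. Reads counted toward the 3' end carry no length correction.

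The members, the reference and the gene lists (271 genes in 27 lists) were chosen with earlier results of these data known. Counts were summed per group and library and scaled to CPM, with exact Poisson, Clopper-Pearson and conditional binomial 95% intervals (Python 3.11.15, NumPy 2.4.6, SciPy 1.17.1, scikit-learn 1.9.0, matplotlib 3.10.9). With 1 library per day no test was made. Genes entered a comparison with at least 50 CPM in 1 of the groups compared (for the reference contrast, in every library; between days, also 10 UMIs over both), and a ratio of at least 2-fold was counted. Where 1 group had 0 UMIs, 3 UMIs took its place. Lists and genes ranked by size are named, the latter being the 12 highest and 12 lowest mean log2 ratios to the reference (the same direction in each library with at least 20 members) and the 12 highest and 12 lowest Day 14 to Day 7 ratios with at least 10 UMIs in each library. The genes beginning mt-, *Gm42418* and the genes of the rule were not ranked. Cells with at least 2000 UMIs were thinned by drawing 2000 without replacement. Shallower cells, among them 1, 12 and 6 members, were left out.

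Doublets were kept in the main values. As an alternative, simulated doublets were counted among the 50 nearest neighbours of each cell over 30 components, and the highest scores were removed at 0.8% per 1000 barcodes, taking 4, 34 and 11 members. On simulated counts the 95% intervals covered 94.5% of 200 changed and 95.4% of unchanged genes for Day 14 over Day 7 (2538 genes), and 96.5% and 95.9% for Day 7 over Day 3 (2788 genes). Gene symbols were matched for 32158 of 32285 IDs, loci came from GENCODE on GRCm38, and upstream sequences from RefSeq on GRCm38.p6. Leaving out barcodes found in several libraries, and cells with at least 3 keratinocyte UMIs, were alternatives chosen after seeing the data. Certain genes are not reported here.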

Additional observations from a re-analysis of the deposited data

Results flagged for a closer look

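Of the genes measured in members and reference, 3 moved at least 2-fold in opposite directions from Day 7 to Day 14. *Clec10a* had a log2 ratio of -1.04 in members (411 to 200 CPM) and 1.10 in the reference (108 to 232 CPM). *Cdh1*, encoding E-cadherin, had -1.30 in members (74.0 to 30.1 CPM) and 1.44 in the reference (2.47 to 6.73 CPM). *Ifi205* had -1.31 in members (54.7 to 22.0 CPM) and 1.06 in the reference (56.5 to 118 CPM). Each pair compares 1 library with 1 other, and the difference between the 2 cell groups was not tested. In cells with no *Cd209a* UMI that met the rest of the rule, *Clec10a* went from 105 to 51.8 CPM and *Ifi205* from 85.4 to 60.4. The direction of these genes in members was thus shared by those cells.

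*Cd209a* also occurred in cells that the members and the reference both left out. Among C1q-positive cells, 4 of 1090 had at least 2 *Cd209a* UMIs on Day 3 (0.367%, 0.10% to 0.937%), 27 of 6736 on Day 7 (0.401%, 0.264% to 0.583%) and 37 of 2707 on Day 14 (1.37%, 0.964% to 1.88%). For scale, 3 cells would be 0.275%, 0.0445% and 0.111% of the 3 libraries' C1q-positive cells. Cells rich in *Dcn* and *Col1a2*, fibroblast genes, should lack *Cd209a*, and 0 of 461 had 2 UMIs of it on Day 3 (3 cells would be 0.651%), 37 of 7922 on Day 7 (0.467%, 0.329% to 0.643%) and 39 of 8207 on Day 14 (0.475%, 0.338% to 0.649%). Of the C1q-positive shares, that on Day 3 lay under what 0 of 461 cells allows, that on Day 7 lay under the fibroblast-rich share, and that on Day 14 lay above it. The fibroblast-rich cells with 2 UMIs were deeper, with medians of 13417 and 12807 UMIs on Days 7 and 14. The C1q-positive cells with 2 UMIs had median depths of 6319.5, 4934 and 4099 UMIs, above the reference medians of 4441.5, 2889 and 3626.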

How the results depend on the processing

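Across 15 alternative settings, 3998 values of named genes were recomputed and 4 that had been at least 2-fold turned direction. *Rgs5* went from 2.22 to -1.81 without high doublet scores and -1.73 in thinned cells, and in thinned cells *Igfbp5* went to -0.56 and *Slpi* to 0.12. Besides these, of 154 Day 14 to Day 7 ratios, 51 in thinned cells and 31 without high doublet scores moved beyond their counting interval, and 43 of 134 ratios to the reference, limited to MHC class II cells, moved by at least 0.5. The *Cd209a* limit moved the share ratios while keeping their direction. With 1 *Cd209a* UMI they were -0.35 (Day 7 over Day 3) and 0.36 (Day 14 over Day 7), and with 3 they were -1.28 and 1.09. Counts of genes depended on the level filter and on depth. In thinned cells 206 genes were higher and 335 lower on Day 14 than on Day 7, and without the 50 most abundant genes 369 were lower. At 20 CPM, 247 were higher and 507 lower, and 397 were lower than the reference in each library. At 200 CPM, the counts were 26 and 36, with 38 higher and 64 lower than the reference. The other settings, with other MHC class II, C1q, mitochondrial, UMI and scaling choices, gave counts within 1.5 times those reported. No paired analysis was possible because each day had 1 library and no test was made. Depth limits low genes most: 3 UMIs in members equalled 3.95, 3.04 and 2.0 CPM in the 3 libraries. The main limits are the single library per day, pooled wounds, and a rule that reads *Cd209a* and therefore misses cDC2 without it.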
